A study of Mus musculus with 36 samples.

Results

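The chromatin around Myb was described at 36 accessible regions, which are all the merged ATAC-seq peaks of 36 libraries whose centre lay within 120 kb of the main transcription start site (TSS) of the gene, out of 105005 merged regions in the genome. ATAC-seq marks open chromatin by the insertion of a transposase into accessible DNA. The main TSS is that of transcript Myb-201 (gene ENSMUSG00000019982.15), at position 21160984 of chromosome 10 in mm10, on the minus strand. Peaks that overlapped by at least 1 bp in any libraries were merged into 1 region, so the members were chosen by position and not by their values. Of the 36 regions, 19 lay upstream of the TSS region, 16 lay downstream of it, and 1 held the TSS (chr10:21160799-21161412). Each region is named here by the distance of its centre from the TSS in kb, with a minus sign for upstream.

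The study compared hematopoietic stem and progenitor cells of C57BL/6 mice that were young (10 weeks) or aged (20 months) and had no other labelled treatment. Marrow cells of each age were pooled and then sorted, and each library was made from 20000 cells. HSCs had 4 libraries per age, and each of the other 7 fractions had 2 per age. Libraries of 1 age may therefore share a pool of mice, and the p-values measure only the spread between these libraries. HSCs were sorted as lineage-negative Sca-1+ c-kit+ cells without CD34, CD48 or Flt3 and with CD150. Multipotent progenitors (MPPs) shared the lineage-negative Sca-1+ c-kit+ gate and carried CD34, with CD150 alone in MPP1, CD150 and CD48 in MPP2, CD48 alone in MPP3, and CD48 with Flt3 in MPP4. Granulocyte-macrophage progenitors (GMPs) were Sca-1- c-kit+ with FcgR and CD34, megakaryocyte-erythrocyte progenitors (MEPs) were Sca-1- c-kit+ without either, and common lymphoid progenitors (CLPs) were lineage-negative with low Sca-1 and c-kit and with the IL-7 receptor, given as IL-7+ in the labels. The gates are the only definition of the fractions, and in sorted bulk cells a smaller share of open cells and less opening per cell cannot be told apart.

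Myb encodes a DNA-binding transcription factor that stem and progenitor cells need to proliferate and that is turned down as blood cells mature. The gene lies between Ahi1, beyond its 3′ end, and Hbs1l, beyond its promoter. The stretch between Hbs1l and Myb is known for enhancers that are bound in erythroid cells by GATA1, TAL1, LDB1 and KLF1 and that contact the Myb promoter. MYB acts with the coactivators p300 and CBP at genes of immature cells, among them Kit and Cd34, and at myeloid genes such as Mpo and Elane.

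The sequences at which fractions differed are shown first. Each is the 201-bp window around the median summit of the region, on the plus strand of mm10, from the RefSeq copy of the GRCm38 assembly. The windows at -81.0, -46.6, -31.7, -24.3 and -91.3 kb are the upstream regions with the largest differences in the share of libraries that called them, over the comparisons of GMPs, MEPs and CLPs with HSCs and MPPs. Those at -60.6, -35.8, +77.2 and +106.0 kb were added after their values were seen, the first called in MEPs alone, the next not called in GMPs, and the others those on which the tests of signal height rest. Capitals mark motif letters on either strand. For GATA these are AGATAA or TGATAA, the site of the GATA factors. For RUNX they are TGTGGT. For the ETS family, which includes PU.1, they are CAGGAAG or else GAGGAAG. For C/EBP, a factor family of myeloid cells, they are TTGCNNAA or TTGCNNCA. The AP-1 motif was searched as TGANTCA. The HOX motif was searched as TTTATGG and, in another form, as TTTATTG. The motif of CTCF was searched as CCACNAGG and STAT as TTCNNNGAA, and IRF by its usual repeat.
-91.3 kb (chr10:21252276-21252476): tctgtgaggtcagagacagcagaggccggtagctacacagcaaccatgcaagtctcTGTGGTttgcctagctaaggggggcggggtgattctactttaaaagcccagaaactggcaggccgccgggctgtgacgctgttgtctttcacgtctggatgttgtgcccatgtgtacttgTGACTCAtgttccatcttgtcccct
-81.0 kb (chr10:21241961-21242161): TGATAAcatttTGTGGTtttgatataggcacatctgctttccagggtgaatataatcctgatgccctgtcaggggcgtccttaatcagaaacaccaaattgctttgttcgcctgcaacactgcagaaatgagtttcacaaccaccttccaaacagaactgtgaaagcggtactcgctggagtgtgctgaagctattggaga
-60.6 kb (chr10:21221463-21221663): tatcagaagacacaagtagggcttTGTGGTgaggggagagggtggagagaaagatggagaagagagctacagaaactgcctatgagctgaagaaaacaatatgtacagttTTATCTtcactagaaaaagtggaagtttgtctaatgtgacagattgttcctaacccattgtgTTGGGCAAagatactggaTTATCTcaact
-46.6 kb (chr10:21207469-21207669): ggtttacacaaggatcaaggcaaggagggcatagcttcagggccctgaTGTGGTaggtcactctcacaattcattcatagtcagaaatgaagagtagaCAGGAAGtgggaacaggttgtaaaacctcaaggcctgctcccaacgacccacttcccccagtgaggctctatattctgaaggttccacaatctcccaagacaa
-35.8 kb (chr10:21196648-21196848): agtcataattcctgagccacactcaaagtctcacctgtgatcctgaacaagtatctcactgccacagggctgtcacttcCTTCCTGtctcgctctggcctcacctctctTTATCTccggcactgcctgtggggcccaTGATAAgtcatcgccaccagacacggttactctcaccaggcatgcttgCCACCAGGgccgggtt
-31.7 kb (chr10:21192532-21192732): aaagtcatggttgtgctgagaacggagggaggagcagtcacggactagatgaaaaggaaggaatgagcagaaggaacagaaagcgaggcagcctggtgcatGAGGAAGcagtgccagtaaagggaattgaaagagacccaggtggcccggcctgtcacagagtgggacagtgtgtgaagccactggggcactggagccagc
-24.3 kb (chr10:21185212-21185412): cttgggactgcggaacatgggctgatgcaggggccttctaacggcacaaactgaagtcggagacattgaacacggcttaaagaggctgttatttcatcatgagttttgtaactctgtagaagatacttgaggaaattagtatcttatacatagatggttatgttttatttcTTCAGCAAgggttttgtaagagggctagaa
+77.2 kb (chr10:21083661-21083861): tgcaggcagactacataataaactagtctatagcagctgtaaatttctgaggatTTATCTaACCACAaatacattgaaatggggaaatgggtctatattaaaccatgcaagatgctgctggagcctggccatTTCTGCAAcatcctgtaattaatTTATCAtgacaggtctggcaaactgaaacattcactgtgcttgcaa
+106.0 kb (chr10:21054857-21055057): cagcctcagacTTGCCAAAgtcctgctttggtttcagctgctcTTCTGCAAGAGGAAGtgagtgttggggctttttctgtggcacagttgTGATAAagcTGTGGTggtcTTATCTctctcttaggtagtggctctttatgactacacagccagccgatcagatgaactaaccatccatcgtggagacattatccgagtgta

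The window at +106.0 kb held a RUNX match from -1 to +4 bp around the median summit, with a GATA match on either side of it, at -10 to -5 bp and at +9 to +14 bp. The window at -35.8 kb held GATA matches at +9 to +14 bp and +37 to +42 bp, and the one at -60.6 kb held GATA matches at +10 to +15 bp and +90 to +95 bp. The window at +77.2 kb held a GATA and a RUNX match side by side at -46 to -41 bp and -39 to -34 bp. At -91.3 kb a RUNX and an AP-1 match were found, and at -31.7 kb an ETS match at +1 to +7 bp. The window at -46.6 kb held an ETS match at -2 to +4 bp and a RUNX match at -52 to -47 bp, and that at -24.3 kb a C/EBP match. A match is a description of the letters and not a binding site. Over the locus, a GATA match was present in 10 of 36 windows (27.8%), against 16.97% of 104815 windows of the whole catalogue. RUNX was matched in 33.3% of the windows against 25.6%, ETS in 47.2% against 34.2% and C/EBP in 36.1% against 23.1%. The motif of MYB itself (AACNG) was in 30 of 36 windows (83.3%), against 74.3% in the catalogue, and AP-1 was in 19.4% against 11.3%. The E-box (CANNTG) was in 61.1% against 64.7% and the KLF motif (CCACNC) in 52.8% against 45.7%. STAT and IRF matches were in 0 of the 36 windows, and HOX and CTCF matches were in 1 window each. These motifs are rare in the catalogue too, at 5.68% (STAT), 3.89% (IRF), 4.47% (HOX) and 5.32% (CTCF) of windows. MYB and E-box matches can share bases. The median GC content was 49.3% in the members and 49.8% in the catalogue.

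The TSS region covers the promoter of Myb and reaches into its first exon. Its promoter, from RefSeq, is printed on the strand of the gene from 250 bases upstream to the base before the TSS, since a region of open chromatin covers it, and capitals mark the KLF match (CCACCC).
Myb promoter (chr10:21160985-21161234, minus strand): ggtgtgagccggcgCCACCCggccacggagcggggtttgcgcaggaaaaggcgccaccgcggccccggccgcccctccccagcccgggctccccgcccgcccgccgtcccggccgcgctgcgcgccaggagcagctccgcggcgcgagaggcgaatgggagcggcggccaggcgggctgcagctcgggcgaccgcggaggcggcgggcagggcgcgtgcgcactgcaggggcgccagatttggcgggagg

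These 250 bases had a GC content of 81.2% and 40 CpG. In the 300-base window that also takes in the first 50 transcribed bases, 1 match each of MYB, E-box and KLF was found, with the MYB match at +32 to +36 bp and the KLF match at -236 to -231 bp of the TSS. A MYB match was in 80.3% of 32841 promoters of that length, an E-box in 72.3% and a KLF match in 60.4%. GATA, RUNX and ETS letters were not in this window.

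Peak calling gave 9581 to 63288 peaks per library, with a median of 33200. A library was said to call a region when one of its peaks overlapped it, and the height of the region was the highest fold enrichment over local background of those peaks, (reads + 1)/(background + 1). The authors subsampled the mapped reads of all libraries to the same number. The number of reads at the summit, recovered for all 335 called values, ranged from 8 to 115, with a median of 19, so a region that was not called cannot be taken as closed. GMPs had the most peaks (52576 to 63288) and MEPs the fewest (9581 to 11041). Regions called in all 36 libraries had a median fold enrichment of 18.5 to 20.3 in GMPs, 7.52 to 7.77 in MEPs and 11.6 to 15.5 in the other fractions. Heights were therefore tested after each library was centred on that median. At the TSS of marker genes, Mpo and Elane were called in all 4 GMP libraries and 0 HSC libraries called either. The CLP libraries called 2 to 3 of 4 CLP markers and the HSC libraries 2 to 3 of 4 HSC markers, but these did not set the fractions apart. Hlf, Meis1 and Il7r were also called in all 4 GMP libraries, with Il7r at 12.03 to 16.2 there against 7.7 to 9.3 in CLPs, and Ebf1 was called in all 8 HSC libraries. Among the HSC markers, Procr was called in all 4 young and 0 of 4 aged HSC libraries, which did not pass Fisher's exact test after adjustment. None of the 5 MEP markers (Klf1, Epor, Gata1, Gfi1b, Itga2b) was called at its TSS in any MEP library, and only 2 of them had a region in any library, so the MEP label could not be checked in this way. Markers of erythroblasts and B cells had no region in any library, and the TSS of the T cell kinase Lck was called in 3 of 4 CLP libraries. Neutrophil markers (S100a8, S100a9, Camp, Ltf) were called in GMP libraries, 3 to 4 of the 4 in each, with a summed fold enrichment of 59.9 to 73.7. They were also called in some libraries of MPP3 (0 to 4 markers per library, summed fold enrichment up to 29.1), MPP4 (0 to 3, up to 20.4), MPP1 and CLPs (0 to 1 each, up to 7.3 and 6.8), and in no HSC, MPP2 or MEP library, and their part in the results at Myb was not tested.

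Myb stood in a crowded stretch. Its 36 regions compare with a median of 16 within 120 kb of the TSS over 21853 protein-coding genes, and 95.3% of those genes had fewer. The members were 139 to 783 bp wide, with a median of 313.5 bp. Only 1 region, at +106.0 kb, was called in all 36 libraries, 8 were called in at least 18, 21 in 2 to 8 and 6 in a single library. On the upstream side, 7 regions (-81.0, -67.7, -63.5, -60.6, -46.6, -45.4 and -40.0 kb) had their centre in introns of the lincRNA Gm33728, and the region at -91.3 kb overlapped the first exon of that transcript. Those at -35.8 and -31.7 kb were intergenic, and those at -25.9 and -24.3 kb had their centre in introns of the lincRNAs Gm33619 and Gm40608. The region at -25.9 kb also overlapped an exon of Gm33619. Within Myb, the regions at +1.8, +7.2, +14 and +14.5, +16.4, and +25.5 and +29.7 kb had their centres in introns 1, 3, 8, 9 and 14 of the main transcript, which has 15 exons. Beyond the 3′ end of the gene, +77.2 kb was intergenic, and +83.6, +93.6, +95.2, +106.0 and +112.1 kb lay in introns 23, 21, 21, 19 and 19 of Ahi1, which has 24 exons. The region at +106.0 kb also overlapped a coding exon of Ahi1. The outermost members, at -109.7 and +112.1 kb, were called in 1 and 2 libraries. The nearest regions past the limit were at -135.0 kb, over the TSS of Hbs1l, called in 33 libraries, and at +133.9 kb in Ahi1, called in 18.

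**Figure D1:**
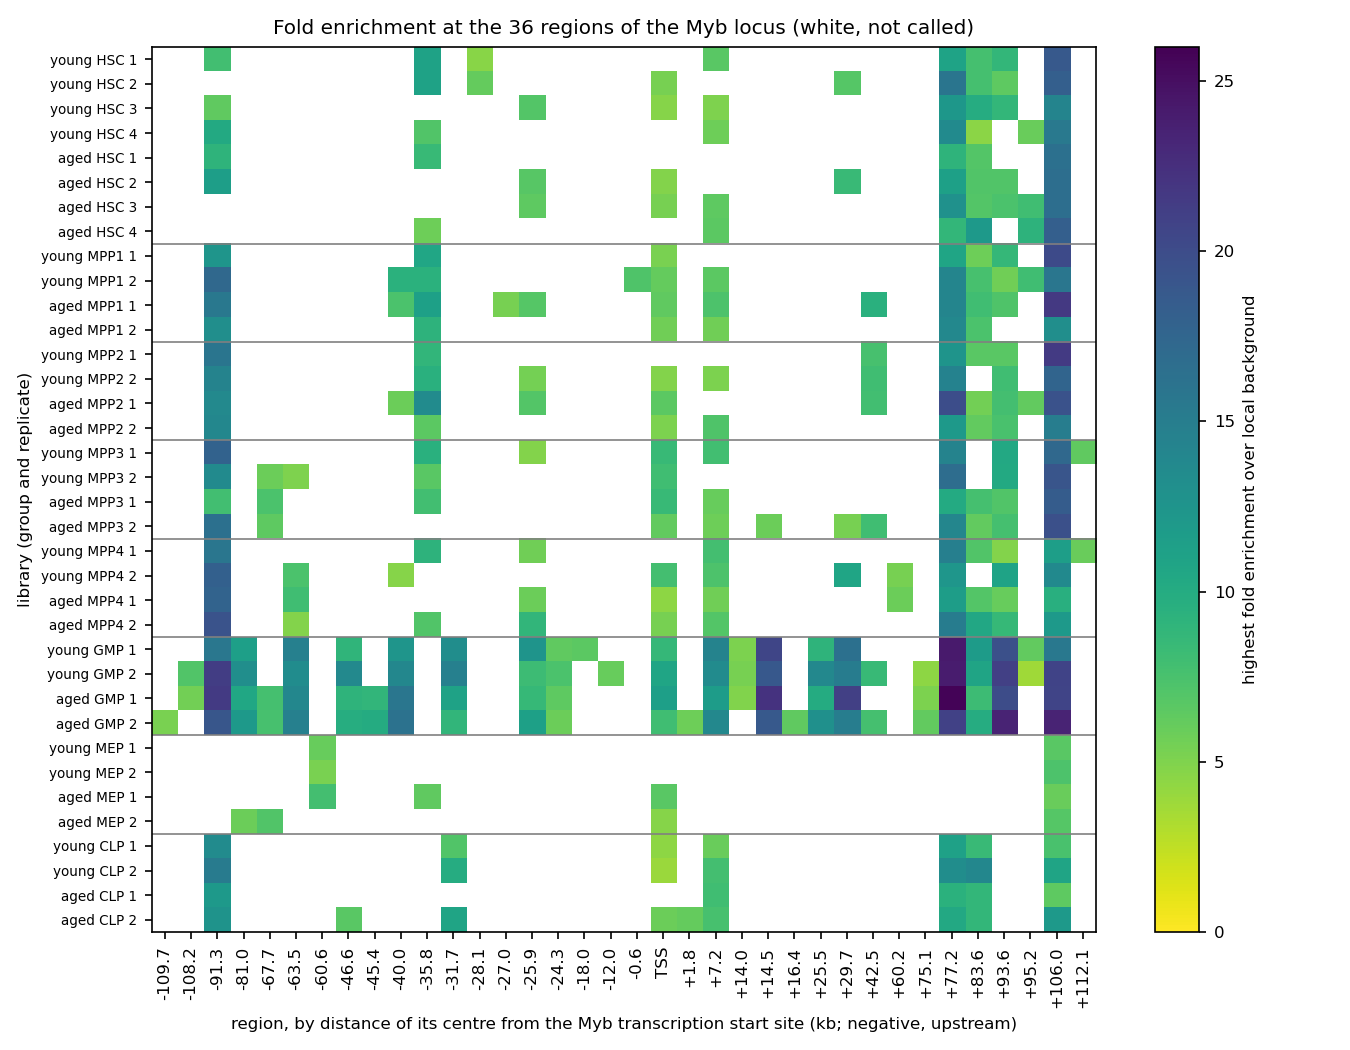
Each column is 1 of the 36 regions of the Myb locus, by its distance from the TSS in kb, and each line is 1 library; color gives the highest fold enrichment and white a region that was not called. The column at +106.0 kb is filled in all 36 libraries, and the 4 GMP libraries fill 20 to 24 columns each.

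The number of regions called per library was highest in GMPs and lowest in MEPs. HSC libraries called 5 to 8 regions (7.25 ± 1.16, SD, n = 8). MPP1 libraries called 7 to 12 (9.25 ± 2.63, n = 4), MPP2 libraries 7 to 11 (8.75 ± 1.71, n = 4), MPP3 libraries 8 to 11 (9.25 ± 1.26, n = 4) and MPP4 libraries 9 to 10 (9.75 ± 0.5, n = 4). GMP libraries called 20 to 24 (22.25 ± 1.71, n = 4), CLP libraries 5 to 9 (7.0 ± 1.63, n = 4) and MEP libraries 2 to 4 (3.0 ± 1.15, n = 4). The GMP libraries did not overlap those of any other fraction, and nor did the MEP libraries. Per 1000 peaks of the library, GMPs called 0.359 to 0.396 regions, HSCs 0.158 to 0.287, MPPs 0.201 to 0.341, MEPs 0.199 to 0.402 and CLPs 0.184 to 0.263. When only the 9581 strongest peaks of each library were kept, GMPs called 3.5 regions on average, MEPs and MPP2 3.0 each, MPP3 2.25, MPP1 2.0, MPP4 1.75, CLPs 1.5 and HSCs 1.375. The call tests of GMPs with equal numbers of peaks, given below, kept more peaks per library than this. The total number of peaks moved with the count, and how far it sets the count at Myb was not tested beyond these values.

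**Figure D2:**
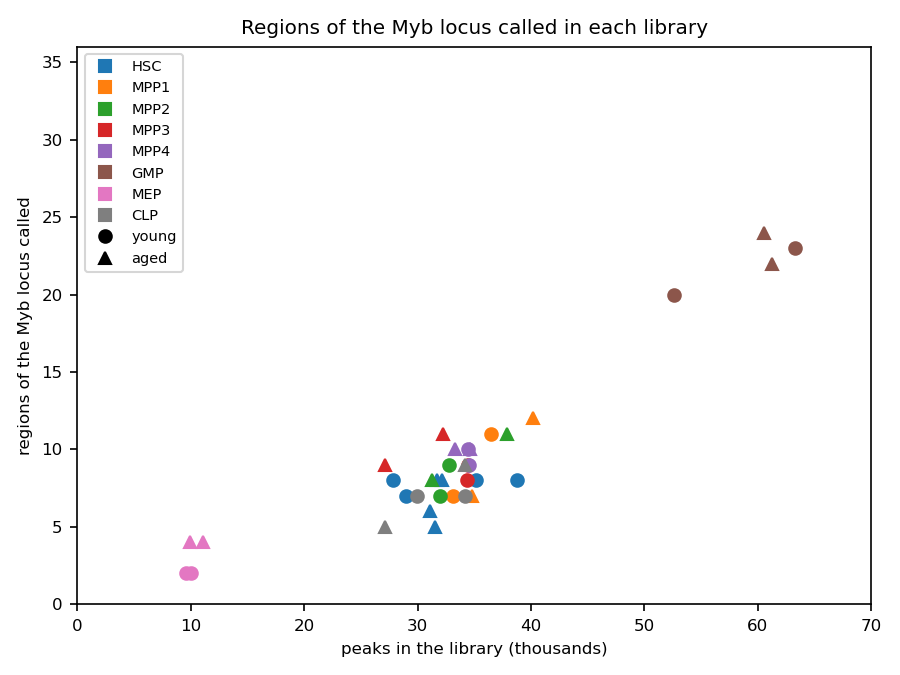
Regions of the Myb locus called (vertical axis) against the number of peaks in the library divided by 1000 (horizontal axis), 1 point per library, colored by fraction, with circles for young and triangles for aged. GMP libraries lie at the upper right with 20 to 24 regions and MEP libraries at the lower left with 2 to 4.

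The TSS region was called in 27 of 36 libraries. In HSCs it was called in 4 of 8 libraries, at 4.7 to 5.3. In MPP1 its fold enrichment was 5.2 and 6.1 in young and 6.4 and 5.6 in aged libraries. In MPP3 it was 8.5 and 8.0 in young and 8.4 and 6.2 in aged, and in GMPs 8.7 and 10.8 in young and 11.3 and 8.0 in aged. The GMP values overlapped those of MPP3 and stood above those of the other fractions. In MEPs it was called in both aged libraries, at 6.6 and 4.7, and in neither young one. MPP2, MPP4 and CLPs each called it in 3 of 4 libraries, at 3.9 to 7.8. On the centred scale the fraction means were lowest for CLPs (4.39) and HSCs (4.99), lay at 5.40, 5.46 and 5.83 for MPP4, MPP2 and MPP1, and reached 6.43 for GMPs, 7.21 for MPP3 and 9.35 for the 2 MEP libraries, over the libraries that called it. Calls of the TSS region passed no test between fractions or ages. The summit lay 6 to 23 bp downstream of the TSS in GMPs, and from 360 bp upstream to 18 bp downstream of it in the other fractions. The narrowest peaks, whose width depends on the fragment length set in calling, were 132 to 139 bp in GMPs and 163 to 191 bp in the other libraries, and the part of this width in the summit position was not tested. The genes whose TSS region followed this pattern most closely over the 8 fraction means were Tcaim (Pearson r = 0.972), Pxmp2 and Pole, which share a region (0.971), Hax1 (0.964) and Arf3 (0.942), out of 5581 candidates. Fractions are not independent of the 27 libraries they share, and the likeness is a description.

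The region at +106.0 kb, in Ahi1, was the only one called in every library, with heights from 5.9 to 23.4. Its fold enrichment in HSCs ranged from 14.3 to 18.7, with a median of 16.6 (n = 8). It was 20.2 and 15.7 in young MPP1 and 21.7 and 13.1 in aged MPP1, and 21.6 and 17.6 in young MPP2 and 19.4 and 14.95 in aged MPP2. In MPP3 it was 17.2 and 19.1 in young and 18.4 and 19.6 in aged libraries. These 4 fractions overlapped throughout.

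MPP4, CLPs, MEPs and GMPs departed from that level at +106.0 kb. MPP4 had 11.4 and 13.7 in young and 9.6 and 12.01 in aged libraries, all below every HSC library. CLPs had 7.4 and 10.8 in young and 6.5 and 11.98 in aged libraries, also below every HSC library. MEPs had 6.7 and 7.2 in young and 5.9 and 6.9 in aged libraries, below every HSC, MPP and GMP library and overlapping CLPs. GMPs had 15.5 and 20.8 in young and 20.7 and 23.4 in aged libraries.

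In limma on centred log2 fold enrichment, the region at +106.0 kb was lower in MPP4 than in HSCs by a log2 difference of -0.62 ± 0.10 (SE, adjusted p = 0.000213). In that comparison 4.55% of 14626 regions were higher and 9.7% lower. It was lower in CLPs than in the mean of HSCs and MPPs, at -0.89 ± 0.11 (limma, adjusted p = 5.82e-08), where 5.52% of 11559 regions were higher and 13.8% lower. It was lower in MEPs at -0.51 ± 0.09 (limma, adjusted p = 3.87e-05), where 23.6% of 5443 regions were higher and 15.6% lower. In GMPs the direction depended on the scaling, at -0.25 ± 0.10 (limma, adjusted p = 0.0274) after centring and +0.29 ± 0.11 (adjusted p = 0.0184) without it. The centred difference in GMPs also fell short of the threshold without young GMP replicate 1 or aged GMP replicate 1, with values of -0.15 and -0.24 (limma, adjusted p = 0.251 and 0.0731), and with stricter peaks. In GMPs 21.6% of 12408 regions were higher and 30.5% lower after centring. Without centring the differences in MPP4, CLPs and MEPs were -0.53, -0.87 and -1.29. Against HSCs, MPP1, MPP2 and MPP3 differed at +106.0 kb by 0.03 ± 0.11, 0.11 ± 0.10 and 0.03 ± 0.09 (limma, adjusted p = 0.947, 0.623 and 0.864), where 0.00598%, 4.73% and 13.8% of regions passed in either direction. The comparisons of GMPs, MEPs and CLPs share the same 24 HSC and MPP libraries, and those of the MPPs share the 8 HSC libraries.

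**Figure D3:**
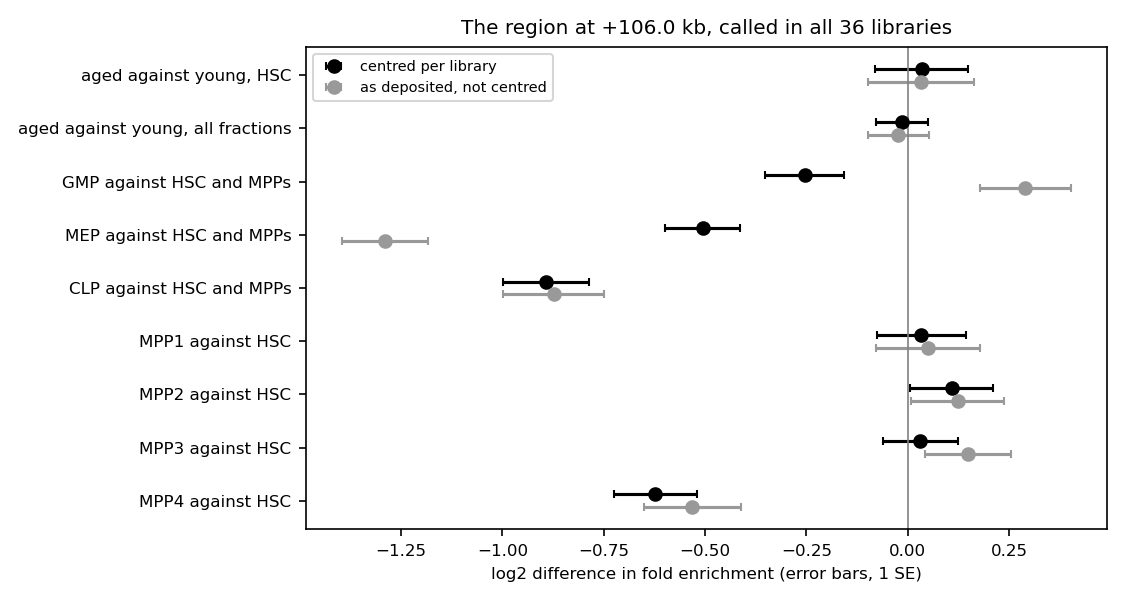
Log2 difference in fold enrichment of the region at +106.0 kb in 9 comparisons (horizontal axis; error bars, 1 SE), centred per library in black and as deposited in gray. CLP, MEP and MPP4 lie below 0 on both scales, and GMP lies at -0.25 centred and +0.29 not centred.

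The intergenic region at +77.2 kb was called in all libraries except those of MEPs. Its fold enrichment in HSCs ranged from 8.8 to 15.9, with a median of 11.8 (n = 8), and over the 16 MPP libraries from 10.1 to 19.9, with a median of 14.1. It was 24.1 and 23.99 in young and 25.7 and 21.01 in aged GMPs, above every library of the other fractions before centring. CLPs had 11.1 and 13.2 in young and 9.4 and 10.3 in aged libraries, within the range of HSCs. After centring, GMPs were higher than HSCs and MPPs by 0.30 ± 0.12 (limma, adjusted p = 0.0353), and by 0.84 ± 0.13 without centring. The centred call did not hold without young GMP replicate 1, young GMP replicate 2 or aged GMP replicate 1 (limma, adjusted p from 0.0735 to 0.112, with differences of 0.27 to 0.30). CLPs differed by -0.29 ± 0.12 (limma, adjusted p = 0.0927), which did not pass. MPP1 to MPP4 differed from HSCs by 0.16, 0.30, 0.11 and 0.11, and none passed (limma, lowest adjusted p = 0.297). No MEP library called the region, against 24 of 24 HSC and MPP libraries (Fisher's exact test, adjusted p = 0.000674). Over the genome, 17% of 73238 regions were called less often in MEPs and 0.99% more often. With equal numbers of peaks per library this difference did not pass (adjusted p = 0.150), nor with the demand for 50% cover of a region by its peak (adjusted p = 0.0521).

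Upstream, the region at -91.3 kb beside the start of Gm33728 was called in some HSC libraries and in every MPP, GMP and CLP library. It was called in 5 of 8 HSC libraries, from 6.3 to 11.5 with a median of 9.1. All 16 MPP libraries called it, from 7.9 to 19.4 with a median of 15.7, and 15 of these stood above every HSC library. GMPs had 15.7 and 21.3 in young and 21.5 and 19.1 in aged libraries, and CLPs had 13.5 and 15.2 in young and 11.9 and 12.6 in aged ones. By calls, the difference between MPPs and HSCs at -91.3 kb did not pass (16 of 16 against 5 of 8, Fisher's exact test, p = 0.0277, adjusted p = 0.303), in a comparison added after the data were seen in which 0.988% of 71377 regions passed. Height was not tested, since 3 HSC libraries gave none and only regions called in all libraries compared were tested. In MEPs it was called in 0 of 4 libraries against 21 of 24 (Fisher's exact test, adjusted p = 0.0116). That call was lost without young MEP replicate 1 or 2 (adjusted p = 0.0502 and 0.0505), with 50% cover (0.0997) and with equal numbers of peaks (0.596).

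**Figure D4:**
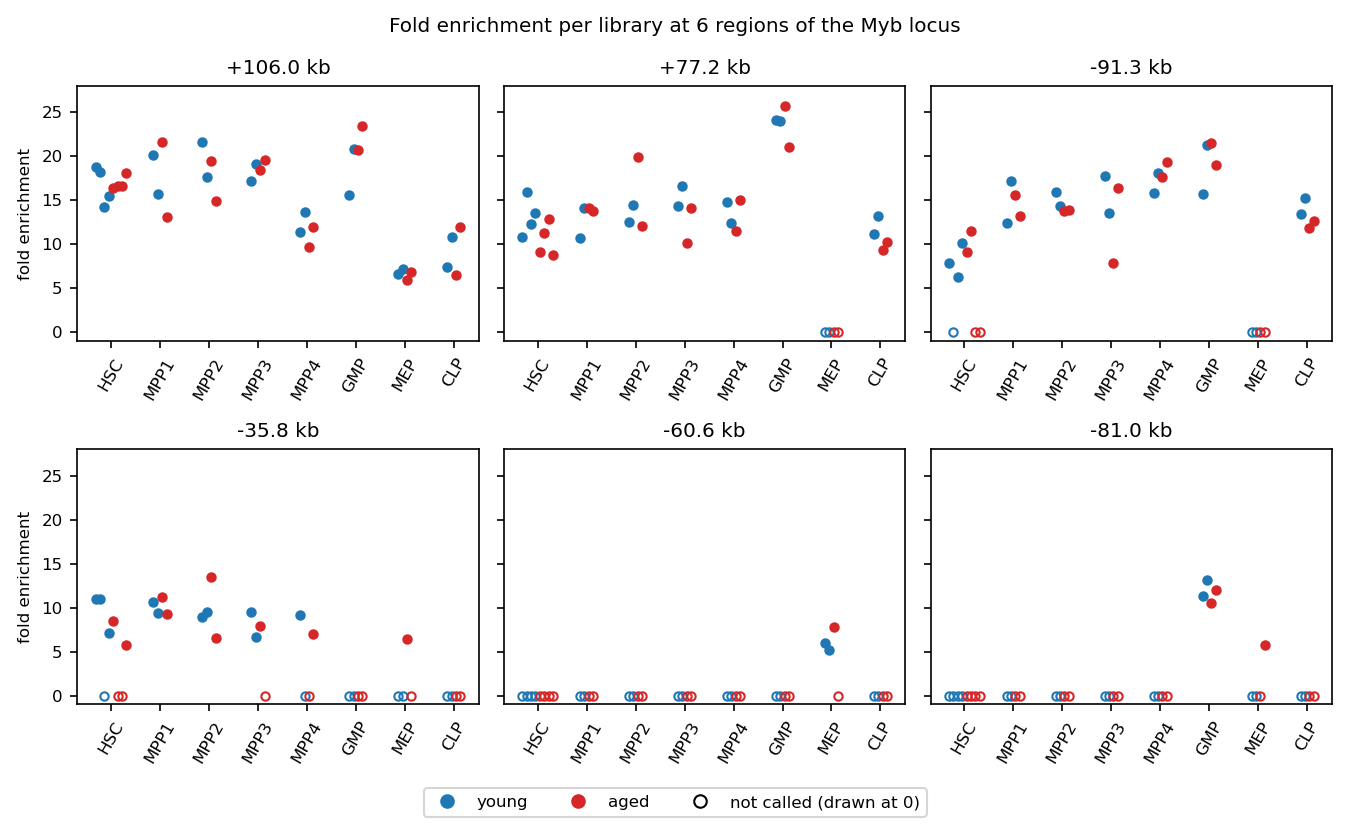
Fold enrichment per library at 6 regions (vertical axis) by fraction (horizontal axis), blue for young and red for aged, with open circles at 0 for libraries that did not call the region. The region at -35.8 kb has no called value in GMPs or CLPs, that at -60.6 kb has values in MEPs alone, and that at -81.0 kb has values in the 4 GMP libraries and 1 MEP library.

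GMPs called many regions that HSCs and MPPs did not. Of 35 members tested, 13 were called more often in GMPs than in the 24 HSC and MPP libraries and 1 less often (Fisher's exact test, Benjamini-Hochberg adjusted p at most 0.05 over 99894 regions). Over the genome, 29.5% of the regions tested were called more often in GMPs and 2.69% less often. The share at the locus, 13 of 35, lies near that background. Of the 36 regions, 29 were called in at least 1 GMP library, 17 in all 4, and 10 in GMPs alone.

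Upstream of Myb, the regions at -81.0, -46.6, -31.7 and -24.3 kb were called in all 4 GMP libraries and in 0 of 24 HSC and MPP libraries (adjusted p = 0.000433 by Fisher's exact test). At -81.0 kb, the young GMP libraries had a fold enrichment of 11.3 and 13.2 and the aged ones 10.5 and 11.96, and aged MEP replicate 2 had 5.8. At -46.6 kb the values were 9.0 and 13.8 in young and 9.1 and 9.8 in aged GMPs, with 6.6 in aged CLP replicate 2. At -31.7 kb they were 13.2 and 14.7 in young and 11.02 and 8.9 in aged GMPs. Both aged GMP libraries lay below both young ones there. At -24.3 kb the height was lower, from 5.9 to 7.4. The call at -31.7 kb was lost with 50% cover (adjusted p = 0.279) and with equal numbers of peaks (0.0692), and that at -24.3 kb with stricter peaks (0.258). None of -81.0, -46.6 and -24.3 kb passed with equal numbers of peaks either.

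Between these lay regions that MPPs called in part. At -63.5 kb, GMPs had 14.6 and 13.4 in young and 13.95 and 14.7 in aged libraries, while 3 MPP4 libraries had 4.8 to 7.9 and 1 MPP3 library had 5.1. At -40.0 kb, GMPs had 12.4 and 13.9 in young and 15.8 and 16.2 in aged libraries, and 4 MPP libraries had 4.7 to 9.4. Both were called in 4 of 4 GMP and 4 of 24 HSC and MPP libraries (Fisher's exact test, adjusted p = 0.0150). No HSC library called either. The region at -67.7 kb was called in 3 of 4 MPP3 libraries (5.8 to 7.4), in both aged GMP libraries (7.7 and 7.6) and in aged MEP replicate 2 (7.1). The region at -25.9 kb was spread over 10 HSC and MPP libraries, at 4.8 to 8.9, and was called in all 4 GMP libraries, at 8.2 to 12.6. The regions at -108.2 and -45.4 kb were called in 2 of 4 GMP libraries and nowhere else. They met the limit with an adjusted p of 0.049997 (Fisher's exact test), and without any of 26 of the 28 libraries in turn they did not (adjusted p from 0.0533 to 0.257).

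Inside the gene, the tallest region of GMPs was at +14.5 kb, centred in intron 8 of the main transcript and overlapping a coding exon of Myb, with 20.6 and 18.9 in young and 22.2 and 18.8 in aged libraries, and 5.9 in aged MPP3 replicate 2, the only other library that called it (Fisher's exact test, adjusted p = 0.00176). At +29.7 kb, in intron 14, GMPs had 16.4 and 15.1 in young and 21.1 and 14.97 in aged libraries, and 4 HSC and MPP libraries had 5.3 to 10.7 (adjusted p = 0.0150). At +25.5 kb, in the same intron, GMPs had 9.1 and 13.9 in young and 9.96 and 12.9 in aged libraries, and no other library called it (adjusted p = 0.000433). The regions at +14 and +75.1 kb were called in 3 of 4 GMP libraries and in no other, at 4.4 to 6.3 (adjusted p = 0.00607 each). With stricter peaks the call at +75.1 kb was lost (adjusted p = 0.258) and no library called +14 kb. With equal numbers of peaks +25.5 kb was lost (0.0692), and neither +14 nor +75.1 kb passed. The region at +7.2 kb in intron 3 was called in 17 of 24 HSC and MPP libraries, at 5.0 to 7.9. It was called in all 4 GMP libraries, at 14.4 and 13.5 in young and 11.7 and 13.8 in aged ones, all above the HSC and MPP libraries before centring. After centring the GMP range, 7.42 to 10.04, overlapped that of MPP4, 5.79 to 7.43. CLPs had 5.9 to 8.0 there, and no MEP library called it. Past the gene, at +93.6 kb, GMPs had 19.7 and 21.1 in young and 19.99 and 23.4 in aged libraries, against 4.8 to 10.9 in the 20 HSC and MPP libraries that called it. Centred GMP values at +93.6 kb, 12.7 to 15.8, stayed above those of MPP2, MPP3 and MPP4 (4.64 to 9.95), and this difference was not tested by itself. The comparison of GMPs with all HSCs and MPPs left the region out, because 4 of the HSC and MPP1 libraries gave no value.

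The region at -35.8 kb ran the other way. It was called in 5 of 8 HSC libraries, from 5.7 to 11.001, in 13 of 16 MPP libraries, from 6.6 to 13.5, and in 0 of 4 GMP libraries (Fisher's exact test, adjusted p = 0.0398). All 4 libraries of MPP1 and of MPP2 called it, 3 of MPP3 and 2 of MPP4. CLPs called it in 0 of 4 libraries too (Fisher's exact test, p = 0.0103, adjusted p = 0.102), and aged MEP replicate 1 called it at 6.4. The GMP difference was lost without any single GMP library (adjusted p from 0.0937 to 0.0993) and with stricter peaks (-log10 q of at least 10), 50% cover or equal numbers of peaks (0.236, 0.279 and 0.0692). With equal numbers of peaks, 4 of the 13 gains in GMPs passed, at -63.5, -40.0, +14.5 and +29.7 kb (adjusted p = 0.00702, 0.00282, 0.000769 and 0.00702).

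**Figure D5:**
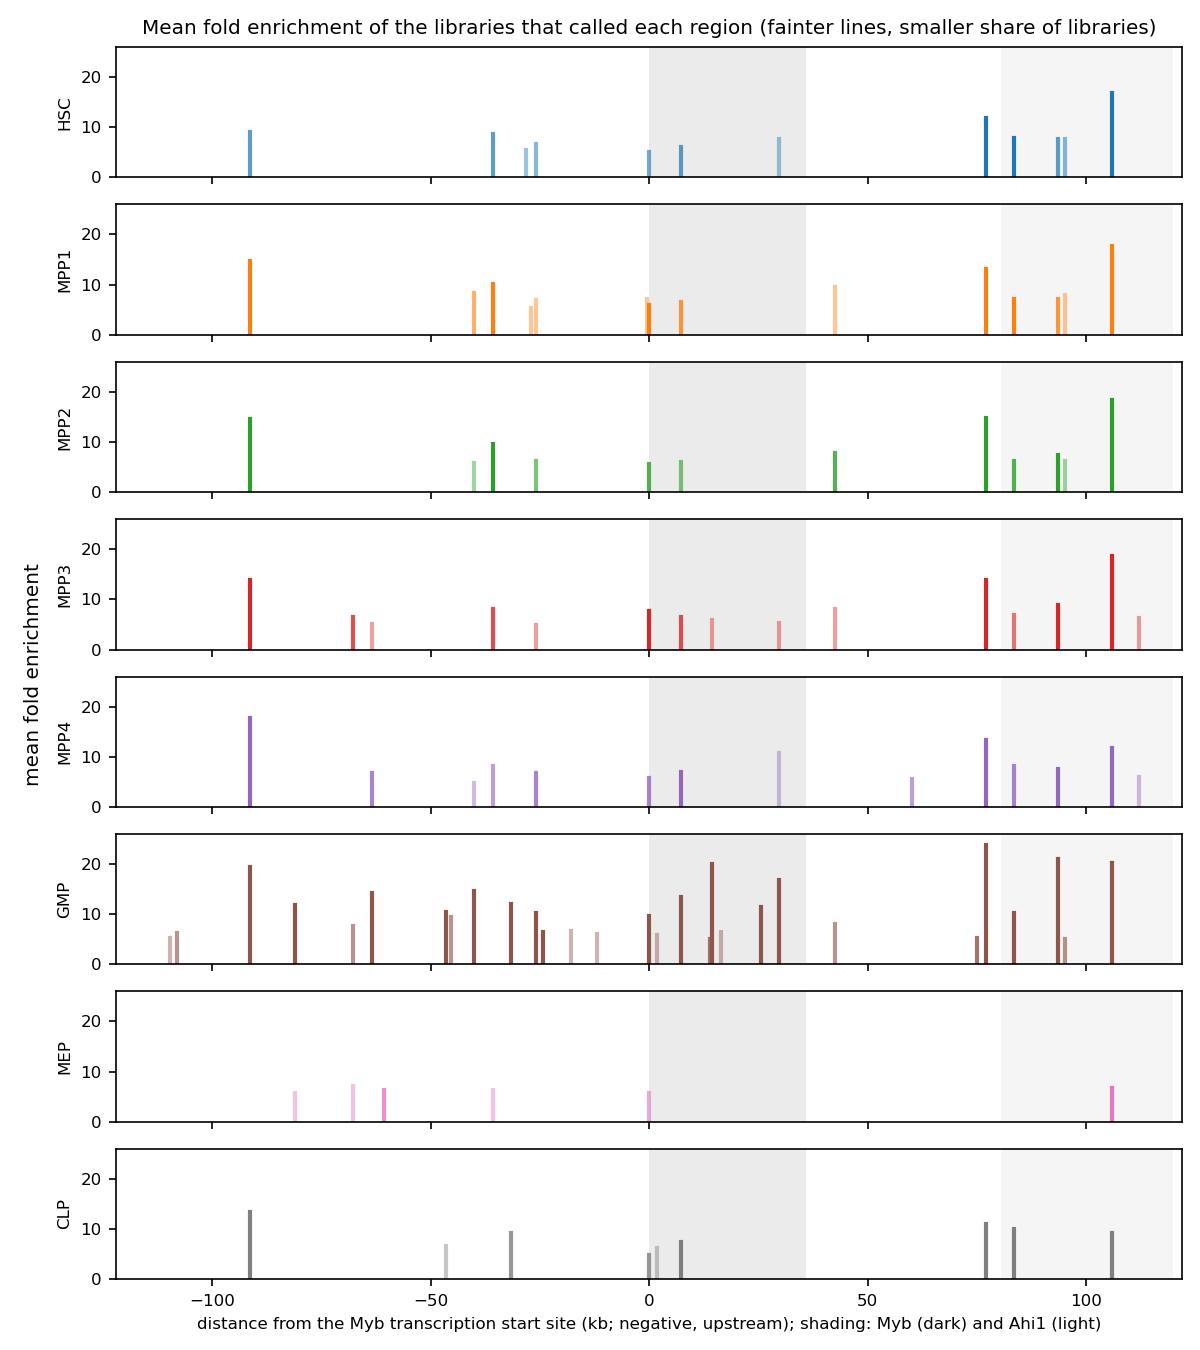
Mean fold enrichment of the libraries that called each region (vertical axis) against its distance from the Myb TSS in kb (horizontal axis), 1 panel per fraction, with fainter lines where a smaller share of the libraries called it; dark shading marks Myb and light shading Ahi1. GMPs show 29 regions, MEPs 6 and HSCs 12.

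Few regions of the locus were called in MEPs, the fraction with the fewest peaks. Only +106.0 kb was called in all 4 MEP libraries, and 6 regions were called in at least 1. Of 23 members tested, 1 was called more often than in HSCs and MPPs and 4 less often, at +77.2, -91.3, +83.6 and +93.6 kb. Over the genome 0.99% of regions were called more often in MEPs and 17% less often, so the 4 of 23 lie near the background. The last 2 were called in 0 of 4 MEP libraries and in 20 of 24 HSC and MPP libraries (Fisher's exact test, adjusted p = 0.0210 each). Without any single MEP library neither passed (adjusted p from 0.0681 to 0.0696), nor with stricter peaks or 50% cover. The region called more often, at -60.6 kb in an intron of Gm33728, was the only region of the locus called in MEPs alone. Its fold enrichment was 6.0 and 5.2 in the young libraries and 7.8 in aged MEP replicate 1, and it was not called in aged MEP replicate 2 or in any of the 32 libraries of other fractions (Fisher's exact test against HSCs and MPPs, adjusted p = 0.00938). It passed with equal numbers of peaks (adjusted p = 0.0123), and it did not pass with 50% cover (0.0997), with stricter peaks (0.375) or without any 1 of the 3 MEP libraries that called it (0.0542 to 0.0548). Its window, printed above, holds 2 GATA matches, 1 RUNX and 1 C/EBP match.

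CLPs called 9 of the regions in at least 1 library and 5 in all 4. Of 24 members tested, 1 was called more often and 1 less often in CLPs, where 4.62% and 2.97% of 77854 regions were. The region at -31.7 kb was called in both young CLP libraries, at 7.1 and 9.9, in aged CLP replicate 2, at 10.8, and in 0 of 24 HSC and MPP libraries (Fisher's exact test, adjusted p = 0.0216). It is the region that GMPs also called, and it passed with equal numbers of peaks (adjusted p = 0.0193). Without young CLP replicate 1, young CLP replicate 2 or aged CLP replicate 2 it did not pass (adjusted p from 0.103 to 0.111). The region at +93.6 kb was called in 0 of 4 CLP libraries against 20 of 24 (adjusted p = 0.0450), and this call was lost in 19 of 28 cases where 1 library was left out (0.0501 to 0.136), and with stricter peaks, 50% cover or equal numbers of peaks (0.503, 1.0 and 0.208). At +83.6 kb, CLPs had 8.4 and 13.9 in young and 8.8 and 8.8 in aged libraries, with a range of 4.6 to 11.99 in the 8 HSC libraries.

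The remaining regions were called in few libraries. Those at -109.7, -27.0, -18.0, -12.0, -0.6 and +16.4 kb were each called in 1 library, at 5.2 to 7.2, and 4 of these 6 calls came from GMP libraries, 2 of them from aged GMP replicate 2. The region at -28.1 kb, over an exon of the lincRNA Gm40608, was called in young HSC replicates 1 and 2 alone, at 4.6 and 6.1. The region at +60.2 kb was called in 2 MPP4 libraries, at 5.4 and 5.8, and that at +1.8 kb in 1 GMP and 1 CLP library, at 5.8 and 6.2. The regions at +42.5 and +95.2 kb were called in 7 libraries each. At +42.5 kb, 3 of 4 MPP2 libraries had 7.5 to 8.0, and 1 MPP1, 1 MPP3 and 2 GMP libraries had 7.6 to 9.5. At +95.2 kb, 3 HSC libraries had 5.9 to 9.2, and 1 MPP1, 1 MPP2 and 2 GMP libraries had 3.7 to 8.0.

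No region of the locus passed a test of age. In HSCs, 0 of 12 members passed in calls (Fisher's exact test, 0 of 51625 regions, 0%, with 365 at an unadjusted p under 0.05 and 0 of these at the locus). The smallest p that 4 against 4 libraries can give is 0.0286, and too few regions reached it for any to pass after adjustment, so the count of 0 says little about age. Over all fractions, with fraction as stratum, 0 of 32 members passed (exact conditional test, 0 of 85292 regions, 0%, with 1169 at an unadjusted p under 0.05 and 0 of these at the locus). In height, limma called 0.0231% of 17340 regions in HSCs and 0.0375% of 5335 regions over all fractions, none of them at the locus. Aged and young HSCs differed at +106.0 kb by 0.03 ± 0.11 (limma, adjusted p = 0.962), at +83.6 kb by 0.16 ± 0.23 (0.895) and at +77.2 kb by -0.33 ± 0.17 (0.581). At +77.2 kb the young HSC libraries had 10.9, 15.9, 12.3 and 13.5 and the aged ones 9.1, 11.3, 12.8 and 8.8, which overlap. Over all 36 libraries the region at +106.0 kb differed with age by -0.01 ± 0.06 (limma, adjusted p = 0.984). The unadjusted p was lowest at -67.7 kb, called in 5 of 18 aged and 1 of 18 young libraries, and at +83.6 kb, called in 16 aged and 12 young ones (exact conditional test, p = 0.0833 each). Young HSC libraries called 7 to 8 regions and aged ones 5 to 8. MEPs were the only fraction in which both aged libraries called more regions, 4 each against 2 each. With 2 libraries per age, this was not tested. In height, among the fractions with 2 libraries per age, both aged libraries lay below both young ones at -91.3 and +77.2 kb in CLPs, at -91.3 kb in MPP2, at +77.2 and +93.6 kb in MPP3, at +7.2 kb in MPP4 and at -31.7 and +83.6 kb in GMPs. They lay above at -40.0 kb in GMPs. Only regions called in all 4 libraries of a fraction were compared in this way. These were 17 in GMPs, 6 in MPP1, 5 each in MPP2, MPP3, MPP4 and CLPs, and 1 in MEPs. None of these 9 orders was tested within its fraction, where there are only 2 libraries per age. With so few libraries such an order often arises by chance, so the list is no sign of a loss or gain with age.

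The other genes of the pathway were read at the region over their TSS. In the tests of height, the shift that centring removed was large in GMPs and MEPs. Without centring the median difference over all regions tested was 0.50 in GMPs and -0.74 in MEPs, with 8898 regions higher and 694 lower in GMPs and 11 higher and 5098 lower in MEPs. Each height is therefore relative to the regions called in all libraries, and values that changed direction or lost the call without centring, an alternative chosen for these lists after seeing the data, are given beside it. Of 11 family members, cofactors and regulators of MYB, 10 had such a region. In GMPs 0 of 10 changed in calls, against 4.63% of all TSS regions higher and 1.82% lower. In height 2 of 8 were higher and 2 lower, against 23.2% and 25.03%. Psip1, a chromatin reader, was higher by 0.28 ± 0.09 and Nlk, a kinase that acts on MYB protein, by 0.31 ± 0.12, while Crebbp, which encodes CBP, differed by -0.39 ± 0.12 and Men1, which encodes menin, by -0.29 ± 0.10 (limma, adjusted p = 0.0132, 0.0286, 0.00538 and 0.0197). Without centring Crebbp and Men1 turned to 0.16 and 0.26 in GMPs (limma, adjusted p = 0.230 and 0.0498). In MEPs 1 of 10 was called less often (Men1, in 1 of 4 libraries against 24 of 24), against 19.9% of all TSS regions. Relative to the other regions, Mybl1, a paralog of Myb, and Ep300, which encodes p300, were higher there by 0.38 ± 0.09 and 0.57 ± 0.14 (limma, adjusted p = 0.00140 and 0.00107), against 20.1% of TSS regions higher, and without centring they were at -0.40 and -0.22 (adjusted p = 0.000535 and 0.143). In CLPs only Men1 passed, at -0.40 ± 0.12 (limma, adjusted p = 0.0200), against 8.21% of TSS regions lower, and without centring it was at -0.38 (adjusted p = 0.0740).

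Of 12 factors known at Myb enhancers, 6 had a region over the TSS of the main transcript, and Gata1, Gata2, Lmo2, Klf1, Spi1 and Hoxa9 had none. In GMPs 2 of 4 tested were higher in height, Tcf3 (0.38 ± 0.12) and the insulator factor Ctcf (0.33 ± 0.11), with adjusted p = 0.00731 and 0.0101 in limma, against 23.2% of all TSS regions. In MEPs Ldb1 and Meis1 were called in 0 of 4 libraries against 19 and 24 of 24 (Fisher's exact test, adjusted p = 0.0341 and 0.000674), against 19.9% of all TSS regions called less often. Ctcf differed in height there by 0.52 ± 0.10 with centring and by -0.26 ± 0.12 without it (limma, adjusted p = 0.000148 and 0.0326). In CLPs Ctcf was higher by 0.35 ± 0.12 and Tal1, a partner of GATA1, differed by -0.40 ± 0.11 (limma, adjusted p = 0.0373 and 0.00978), against 3.89% of TSS regions higher and 8.21% lower, and without centring Ctcf was at 0.37 (adjusted p = 0.0556). Of 12 known MYB target genes, 10 had a region. In GMPs 3 of 10 were called more often: the granule genes Mpo (4 of 4 against 1 of 24) and Elane (4 of 4 against 0 of 24), and Il7r (4 of 4 against 4 of 24), with adjusted p = 0.00176, 0.000433 and 0.0150 by Fisher's exact test, against 4.63% of all TSS regions. In height Kit and Cd34 were lower relative to the other regions in GMPs, at -0.52 ± 0.11 and -0.58 ± 0.13 (limma, adjusted p = 0.000264 and 0.000352), out of 5 tested, against 25.03% of TSS regions. Without centring they were at 0.02 and -0.03 (limma, adjusted p = 0.875 and 0.830). In MEPs Cd34, Bcl2 and Flt3 were called in 0 of 4 libraries against 24 of 24 (Fisher's exact test, adjusted p = 0.000674 each), against 19.9% of TSS regions. In CLPs Il7r was called in 4 of 4 libraries against 4 of 24 (Fisher's exact test, adjusted p = 0.0450), against 0.190% of TSS regions. Of the neighbors, the TSS of Ahi1 was called in all 36 libraries and that of Hbs1l in 33, with 1 of 4 MEP libraries (adjusted p = 0.00938), while Aldh8a1 had no region. No gene of these lists passed a test of age.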

How the data were processed

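ATAC-seq peak lists of 36 libraries were analysed. Per the study's methods, the authors aligned single reads to mm10 with Bowtie2, subsampled mapped reads with SAMtools to the same number in all libraries, and called peaks per library with MACS2 2.2.6. The deposited fold enrichment is a ratio of reads to local background at the summit. The deposited −log10 p and −log10 q values, and the score derived from the latter, come from the same caller, and the deposited summit position is an offset within the peak (another unit, in bp). The lists hold no counts, so a count model could not be used, and the depth behind an uncalled region is unknown.

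Peaks overlapping by at least 1 bp were merged. Calls were compared per region with two-sided Fisher's exact tests, or an exact conditional test with fraction as stratum, and log2 fold enrichment of regions called in all libraries compared with limma 3.58.1 (R 4.3.3), centred per library on the regions called in all 36. Differences are on the log2 scale. P-values were adjusted (Benjamini-Hochberg) over all regions tested, with a limit of 0.05. On simulated data, the tests of calls were tried for GMPs and for age over all fractions, and limma for GMPs and for age in HSCs. The other comparisons were not simulated. The differences planted for limma were larger than those reported here, and many changed regions were planted for the calls of GMPs. Python 3.11.15, scipy 1.17.1, numpy 2.4.6 and GENCODE vM21 were used. Regions were named when they held the TSS, were called in at least 18 libraries, were called in all libraries of 1 fraction and none of another, passed a test, or bordered the 120 kb limit. The 5 genes most like Myb were named by Pearson r. The members follow from position alone, but the locus, the lists and the tests were chosen with earlier results of these data known. Alternatives were stricter peaks, 50% cover, equal numbers of peaks, no centring, no trend, a replicate block and leaving out each library. The names of the deposited lists of HSC replicates 1 and 2 differ in style from those of replicates 3 and 4, and each pair was left out in turn, an alternative chosen after seeing the data.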

Additional observations from a re-analysis of the deposited data

Results flagged for a closer look

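Among 8 groups of 4 HSC libraries checked for a library far from the others, 3 held one, where chance gives about 1 in 20 groups. Young HSC replicate 4 called 7 regions of the locus, against 8 in each of the other young HSC libraries, so that a difference of 1 region was enough to set it apart. Aged HSC replicate 4 had the highest fold enrichment of the aged HSC libraries at +83.6 kb, 11.99, and at +106.0 kb, 18.1.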

How the results depend on the processing

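The shares of all regions under the settings of this paragraph are not given, so its counts show only how stable the calls of members were. With equal numbers of peaks, the members called differently were 4 in GMPs (4 higher, 0 lower), 1 in MEPs and 1 in CLPs. With stricter peaks they were 3 in MEPs and 1 in CLPs, and with 50% cover 0 in MEPs. In height, stricter peaks gave 1 member in GMPs, 0 in MEPs and 0 in CLPs. In the latter fractions +106.0 kb was not tested there, since not every library had such a peak. Without centring, +106.0 kb in GMPs reversed to 0.29. Leaving out 1 library at a time gave 11 to 13 members by calls in GMPs, 1 to 5 in MEPs and 0 to 2 in CLPs, and by height 0 to 2 in GMPs, 1 in MEPs, 1 in CLPs and 1 in MPP4. Leaving out HSC replicates 1 and 2 or 3 and 4, chosen after seeing the data, gave 12 members by calls in GMPs in place of 14, since the calls at -108.2 and -45.4 kb ended, and left each of the other 10 counts within 1.5 times. Peak lists give no value for a region under the caller's limit, which bounds every count of uncalled libraries.

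With a replicate block, all 11 counts of members called and 18 named values kept their direction and side of the limit, such as 0 members by age in HSCs. To look for pairs, the mean of each age was subtracted per region, so the correlations below are of what was left and not of the signal itself. On that scale same-numbered young and aged HSC libraries correlated by 0.078, 0.094, 0.179 and -0.079 over 17340 regions, so the numbers were not taken as pairs. Young HSC replicate 3 correlated by 0.185 with aged replicate 4 and by -0.195 and -0.167 with aged replicates 1 and 2. Young replicates 1 and 2 correlated positively with aged 1 and 2 (0.041 to 0.094) and negatively with aged 3 and 4 (-0.085 to -0.047). Young replicate 4 had the same signs, with 0.098 and 0.020 for aged 1 and 2 and -0.042 and -0.079 for aged 3 and 4. These signs are opposite to those of young replicate 3. Values centred within an age offset one another over its libraries, so part of this opposition is forced.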
